A study of Mus musculus with 12 samples.

Results

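The transcripts described here are those whose array signal had dropped by 12 h after Sox2 was switched off in mouse embryonic stem cells and was still down at 24 h. They are 182 probes of 42006 on the array, and 0.471% of the 38670 probes bright enough to be considered. A member met 2 limits on a log2 ratio of sample over reference RNA: its mean at 12 h and its mean at 24 h both lay at least 0.7 below its mean at 0 h. It also had to be well above background in the sample dye (Cy3) on both 0 h arrays and in the reference dye (Cy5) on all 12 arrays. Of the 38670 probes that met these conditions, 306 passed the limit at 12 h and 498 passed it at 24 h. The values at 0, 12 and 24 h therefore chose the members and are given as a description.

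The cells are 2TS22C, described in the labels as a mouse embryonic stem line with an inducible Sox2 knockout. Its supply of Sox2 depends on a construct that tetracycline (Tc) shuts off, and it was grown with the cytokine LIF in all groups. Untreated cells (0 h) and cells 3, 6, 12, 24, 48, 72 and 96 h after Tc were harvested, with 2 arrays for each of 0, 6, 24 and 72 h and a single array for each of the other times. Every array set the sample against the same RNA pool from mouse cell lines. The study used 1 line, and no culture without the Tc switch was among the samples analysed, so loss of Sox2, exposure to Tc and time in culture cannot be told apart. The titles give Tc to all samples after 0 h, while the description field writes the untreated form throughout; the titles were followed.

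Sox2 is a transcription factor of the HMG-box family. In embryonic stem cells it binds DNA beside Oct3/4 at many enhancers, including those of genes that keep the cells pluripotent, and its loss leads such cells to differentiate. After a regulator is removed, how soon an mRNA falls depends on how long the regulator's protein lasts and on how fast the mRNA itself decays.

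The files repeat the probe name where a gene name would stand, and no table used here pairs these probes with genes. Members are therefore identified by probe name and by the 60-base sequence on the array, and a count of probes is not a count of genes. No member sequence was found whole in the RefSeq promoter windows or miRNA hairpins used here (GRCm38.p6), so no genome position is given. The defining genes of embryonic stem cells, and Sox2 itself, could not be read for the same reason. The sequences below are those of the probes on which the results turn, 5′ to 3′ as deposited, with ATTTA, the core of AU-rich elements known from unstable mRNAs, in capitals.

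The first 5 belong to the lowest differences at 12 h:
Z00016300-1: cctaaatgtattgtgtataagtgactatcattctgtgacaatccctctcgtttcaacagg
Z00036120-1: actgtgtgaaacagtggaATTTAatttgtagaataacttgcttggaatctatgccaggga
Z00030833-1: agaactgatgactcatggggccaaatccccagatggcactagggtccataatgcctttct
Z00030630-1: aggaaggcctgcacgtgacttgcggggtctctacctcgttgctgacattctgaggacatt
Z00003049-1: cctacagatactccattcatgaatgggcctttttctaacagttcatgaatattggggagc

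The next 3, with Z00030833-1, were the lowest at 72 and 96 h:
Z00022526-1: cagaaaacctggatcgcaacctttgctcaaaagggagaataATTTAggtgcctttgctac
Z00070910-1: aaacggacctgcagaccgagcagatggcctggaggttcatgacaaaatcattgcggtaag
Z00035935-1: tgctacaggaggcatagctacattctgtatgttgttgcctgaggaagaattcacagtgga

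The next 3 came back most after 24 h among probes well above background throughout:
Z00025416-1: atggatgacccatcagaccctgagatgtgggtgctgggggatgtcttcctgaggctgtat
Z00007727-1: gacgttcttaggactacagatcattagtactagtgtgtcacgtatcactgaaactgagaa
Z00022006-1: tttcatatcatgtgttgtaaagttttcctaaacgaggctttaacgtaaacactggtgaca

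The last 2 had the lowest differences at 6 h and 12 h, respectively, and were dim or uneven at 0 h:
Z00005645-1: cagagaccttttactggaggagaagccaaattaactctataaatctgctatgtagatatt
Z00037738-1: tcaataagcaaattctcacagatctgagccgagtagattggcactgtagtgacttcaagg

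Per the file headers, image analysis fell on 2 days: the 6 arrays up to 12 h were read first, and the 6 arrays from 24 h on were read on the other day. The median background-subtracted Cy3 signal was 96.9 to 120 units on the earlier day and 122 to 220 units on the later one, and 93.4% to 99.8% of spots were well above background in Cy3. The median spread between replicate arrays, as an SD of the log2 ratio, was 0.049 to 0.056 over all tested probes and 0.065 to 0.077 over the members. The number of arrays limits the precision. Nothing in the labels states that replicates are separate cultures; the p-values below reflect the spread between these samples alone, which may be technical.

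Before Tc most members were more abundant in the stem cells than in the reference pool. The log2 ratio at 0 h had a median of 0.98 over members and of -0.04 over all tested probes. It was above 0 for 150 members (82.4%), against 46.9% of tested probes, and above 1 for 88 (48.4%), against 12.3%. The range was wide, from -4.29 to 4.82, so some members were far more abundant in the reference pool. Because a probe must have signal to lose, the rule itself favours high values at 0 h.

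The members stood near their starting level at 3 h, somewhat lower at 6 h and well below it by 12 h. On the log2 scale the median difference from 0 h was -0.04 for 3 h, -0.26 for 6 h and -0.92 for 12 h. It then stayed between -1.19 (24 h) and -1.06 (96 h), with -1.16 and -1.11 for the times between. The median over all tested probes lay between -0.01 and 0.01 at each of these times. At 12 h the differences ran from -1.92 to the limit of the rule, and at 24 h from -3.36 to that limit. At 96 h they ran from -3.87 to 1.14, so the spread among members widened: 129 were still at or under -0.7, and 11 lay above 0. A difference at or under -0.7 at 96 h was seen for 5.41% of tested probes. The lowest point came with the 12 h array for 33 members and with the 24 h arrays for 46. It came later for 34 (48 h), 25 (72 h) and 38 (96 h), and earlier for 1 (3 h) and 5 (6 h). All these differences share the 0 h arrays that helped to choose the members, so they carry no test.

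**Figure D1:**
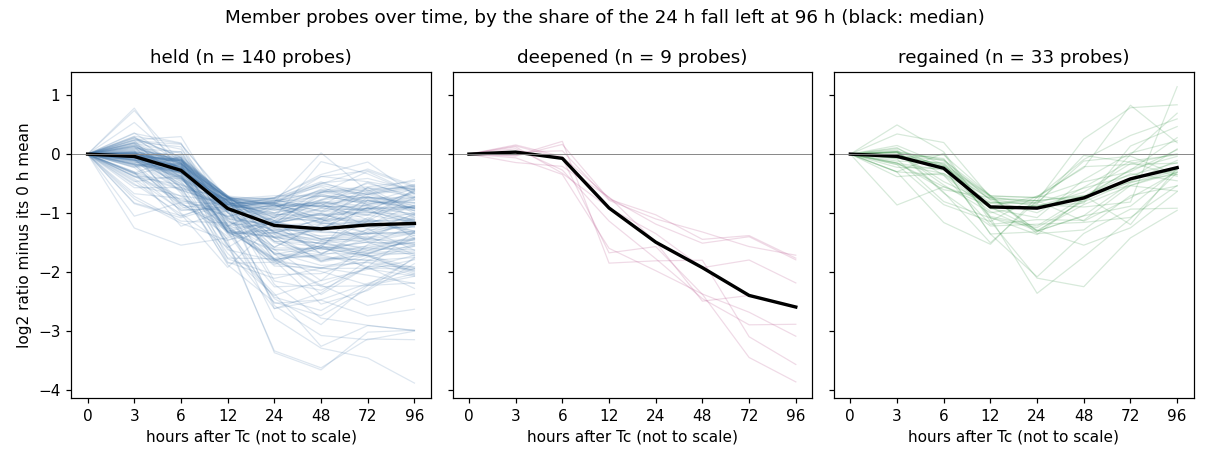
Log2 ratio of each member probe minus its 0 h mean (vertical axis) against hours after Tc (horizontal axis, evenly spaced). Panels hold the members labelled held, deepened or regained by the share of the 24 h difference left at 96 h. Thin lines are probes and the black line is the median of each panel. The medians of all 3 panels stay near 0 at 3 h and lie between -0.89 and -0.92 at 12 h, then part, ending at -1.17, -2.59 and -0.23 at 96 h.

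Whether members had started to fall before 12 h was tested on the 3 h and 6 h arrays, whose ratios the rule did not use. At 6 h 165 of the 182 members stood below 3 h, where 49.4% of tested probes did, and the median change was -0.23 for members against 0.001 for tested probes. On both 6 h arrays 142 members were below the single 3 h array, and 11 were above it on both. No member was called, with limma's moderated test at an adjusted p under 0.05. In all 4 tested probes were called lower (0.0096%) and 0 higher (0%). At an unadjusted p under 0.05, 76 members (41.8%) were lower and 0 higher, against 3.78% and 3.79% of tested probes. Of 163 members well above background on all arrays, 148 were lower at 6 h than at 3 h. With background correction by normexp and an offset of 50, in place of Agilent's processed signals, 19 members were called lower and 0 higher. Over all 41683 tested probes that setting called 33 lower and 25 higher.

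Single members show the 3 courses. Probe Z00036120-1 read -1.72 and -1.76 on the 0 h arrays, -1.86 on the 3 h array, -2.33 and -2.40 on those of 6 h and -3.59 by 12 h. It then read -3.49 and -3.65 (24 h), -3.31 (48 h), -3.42 and -3.32 (72 h) and -3.11 (96 h). Both 6 h arrays already lay below the 0 h and 3 h arrays, and all arrays from 12 h on lay far below them. Its processed Cy3 signal went from 3600 and 3470 units before Tc to 1030 by 12 h, while its Cy5 signal stayed between 10400 and 14400 units on all 12 arrays.

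Probe Z00016300-1 read -0.84 on both 0 h arrays and -0.89 at 3 h, then -1.33 and -1.45 at 6 h and -2.71 at 12 h. It reached -3.03 and -3.66 (24 h) and -3.57 (48 h), then -3.04 and -3.20 (72 h) and -2.59 (96 h). The 2 arrays at 24 h were farther apart than those of any other replicated time for this probe.

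Probe Z00030630-1 read 1.93 and 1.72 (0 h), 1.86 (3 h), 1.35 and 1.61 (6 h), and between -0.34 and 0.12 on every array from 12 h on. Its Cy3 signal was 1710 and 1660 units before Tc, 536 by 12 h, 407 and 341 by 24 h and 389 by the end. Probe Z00003049-1 read 1.04 and 0.98 (0 h), 1.21 (3 h), 0.76 and 0.95 (6 h) and -0.76 (12 h), and between -1.13 and -0.52 after that. For both, every array from 12 h on lay below every array up to 6 h.

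Whether the lower level was kept was tested on arrays that entered the rule only through its Cy5 background condition. The mean of 48, 72 and 96 h was set against the mean of 3 and 6 h. Tested probes did not have to meet the rule's background conditions. Of the 182 members, 140 (76.9%) were lower late and 6 (3.30%) higher, at an adjusted p under 0.05 in limma. Over all tested probes 16.8% were called lower and 20.7% higher. The median change was -0.997 for members and 0.006 for tested probes, and 163 members had a change below 0, against 48.5% of tested probes. With normexp and the offset of 50 the medians were -0.656 and 0.002. For 128 of the 181 members measured on all 7 arrays, the 4 late arrays lay below all 3 early ones, as did 18.5% of tested probes. Every early array was read on one day and every late array on the other, and the effects of day and hour cannot be told apart here. In the sample dye alone, each array centred on its median, the members' median change was -1.18, against -0.09 over tested probes. In the reference dye, which held the same RNA throughout, it was -0.24 against -0.16.

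**Figure D2:**
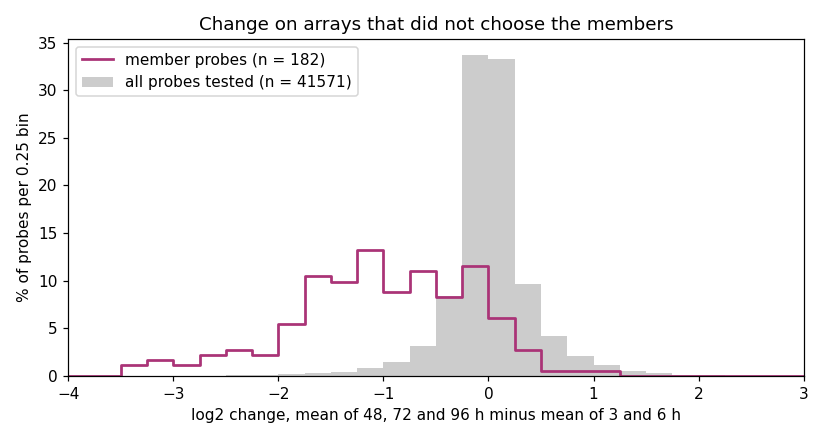
Share of probes per bin (vertical axis, %) against the log2 change from the mean of 3 and 6 h to the mean of 48, 72 and 96 h (horizontal axis), for the 182 members (line) and the 41571 probes tested (grey bars). Tested probes centre on 0, while members spread mostly from 0 to about -3 with a median of -0.997.

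For the members lowest at 12 h, the late change was -1.15 (SE 0.06, adjusted p = 2.92e-05 in limma) for Z00036120-1 and -1.95 (SE 0.16, adjusted p = 1.86e-04) for Z00016300-1. It was -1.72 (SE 0.09) for Z00030630-1 and -1.79 (SE 0.07) for Z00003049-1, both called. Other members were named for the lowest values at 72 and 96 h, on arrays that enter the late change. The size of their late change is therefore partly set by that choice. It was -3.40 (SE 0.08, limma adjusted p = 6.11e-06) for Z00022526-1, -3.26 (SE 0.10) for Z00070910-1, -3.05 (SE 0.06) for Z00035935-1 and -2.91 (SE 0.13) for Z00030833-1. With normexp and the offset of 50 the changes were -1.9, -3.0, -2.49 and -2.21, in the same order. Z00070910-1 and Z00030833-1 are also among the 4 members with the highest ratio at 0 h. The other two, Z00059045-1 (3.85 and 3.78 at 0 h) and Z00024815-1 (3.70 and 3.62), changed by -2.36 (SE 0.14) and -2.23 (SE 0.12).

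To describe the later course, members were grouped by the share of the 24 h difference left at 96 h. This grouping was chosen after the profiles had been seen and carries no test. It rests on the single 96 h array. The share lay between 0.5 and 1.5 for 140 members, labelled held, a range wide enough that single ones still moved. Among them Z00022526-1 went from -2.78 at 24 h to -3.87 at 96 h. The share was over 1.5 for 9, labelled deepened, and under 0.5 for 33, labelled regained, which had lost part or all of the difference on that array. One of these, Z00058720-1, read -1.45 at 96 h, but -2.92 and -3.89 at 72 h against -2.59 on both 0 h arrays. The 3 sets differed little at 12 h, with median differences of -0.92, -0.91 and -0.89. By 24 h the medians were -1.21, -1.49 and -0.91, and by 96 h they were -1.17, -2.59 and -0.23. The median log2 ratio at 0 h was 0.96 in those that held, 2.47 in those that deepened and 0.69 in those that regained; all 9 that deepened were above 0 at 0 h, as were 22 of the 33 that regained.

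Movement after 48 h was tested inside the second day, as the mean of 72 and 96 h against 48 h, on ratios the rule did not use. In this contrast 26 members (14.3%) rose and 6 (3.30%) fell at an adjusted p under 0.05 in limma. Over tested probes 4.92% were called higher and 3.94% lower, so falls among members were near the background and rises above it. The single 48 h array enters all of these calls. In Cy3 alone 8 members were called higher and 3 lower, against 628 and 616 of 41602 tested probes. Of the 26, 6 were called higher there and 25 kept their sign. Of the 6, 2 were called lower there and all kept their sign. With the offset of 50, 45 members were called higher and 8 lower, against 3958 and 2901 of 41602 tested probes.

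The 2 largest falls after 48 h were those of Z00030833-1 and Z00070910-1. Z00030833-1 read 3.47 and 3.78 (0 h), 3.60 (3 h), 3.71 and 3.97 (6 h), 1.78 (12 h), 1.65 and 1.99 (24 h), 1.83 (48 h), 0.58 and 0.49 (72 h) and 0.06 (96 h). The arrays of 12 to 48 h lay together below all earlier ones, and those of 72 and 96 h below these. The change after 48 h was -1.53 (SE 0.18, limma adjusted p = 0.0078), and -0.94 (adjusted p = 0.0437) in Cy3 alone. Its Cy5 signal was 155 to 245 units on 11 arrays and 374 on the 96 h array, and a higher Cy5 lowers the ratio.

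Z00070910-1 had the highest ratio of any member at 0 h, 4.77 and 4.88. It read 4.96 (3 h), 4.55 and 4.96 (6 h), 3.15 (12 h), 3.24 and 3.28 (24 h), 2.45 (48 h), 1.39 and 1.38 (72 h) and 0.97 (96 h). Its Cy3 signal went from 7600 and 7800 units before Tc to 1590 by 12 h and 338 by the end. The change after 48 h was -1.28 (SE 0.15, limma adjusted p = 0.0073) in the ratio and -1.31 in Cy3 alone. The other 4 that fell after 48 h (Z00045512-1, Z00025959-1, Z00006651-1 and Z00053915-1) changed by -0.31 to -0.51; they are named because the count is small.

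By contrast, Z00035935-1 had its largest step between 12 and 24 h. It read 0.59 and 0.71 (0 h), 0.49 (3 h), 0.35 and 0.29 (6 h), -0.87 (12 h), -2.61 and -2.75 (24 h) and -2.97 (48 h). It then stood at -2.53 and -2.43 (72 h) and -2.49 (96 h), a rise after 48 h of 0.48 (SE 0.09, limma adjusted p = 0.0243). In Cy3 alone that change was 0.24 and the call was lost (limma adjusted p = 0.433). Z00022526-1 read 3.20 and 3.27 (0 h), 3.02 (3 h), 3.05 and 3.30 (6 h), 2.04 (12 h), 0.41 and 0.50 (24 h), -0.05 (48 h), -0.14 and -0.30 (72 h) and -0.64 (96 h). From 12 h on, each time was lower than the one before. Its Cy3 signal ended at 61.6 units, from 937 and 858, and its Cy5 signal was 78.5 to 135 units on all 12 arrays. Both dyes were thus dim late, and the size of its fall is rough.

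**Figure D3:**
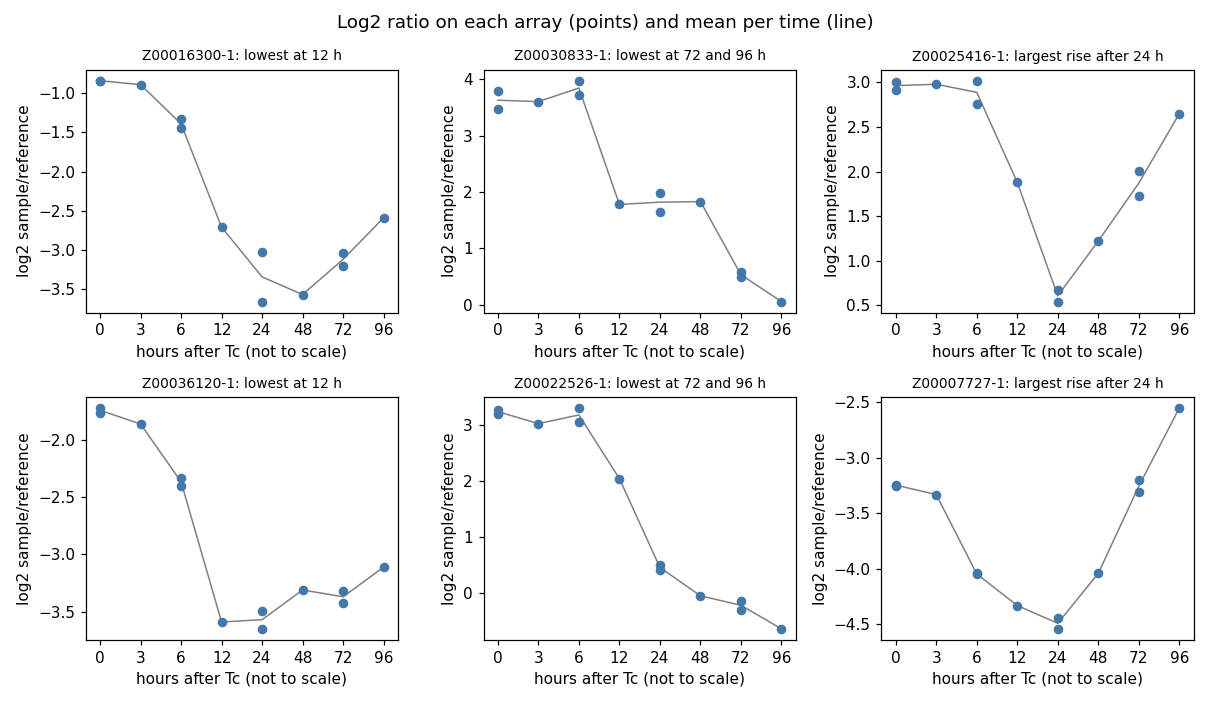
Log2 ratio of sample over reference (vertical axis, own scale per panel) on each array (points) and its mean per time (line) against hours after Tc, for 6 members well above background on all 12 arrays. Left, Z00016300-1 and Z00036120-1, which were among the lowest at 12 h and ended at -2.59 and -3.11; middle, the long falls of Z00030833-1 and Z00022526-1; right, the return of Z00025416-1 and Z00007727-1 after a low point at 24 h.

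Members that came back differed in how far. Those described first were named for the largest rise from 24 h to 72 and 96 h. The size of their changes measured on the 72 and 96 h arrays is therefore partly set by that choice. Z00025416-1 read 3.01 and 2.92 (0 h), 2.98 (3 h), 2.76 and 3.02 (6 h), 1.88 (12 h) and 0.67 and 0.54 (24 h). It then read 1.22 (48 h), 1.73 and 2.01 (72 h) and 2.65 (96 h), close to but still below every array of 0 to 6 h. Its rise after 48 h was 1.04 (SE 0.15, limma adjusted p = 0.0118), and 1.06 in Cy3 alone.

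Z00007727-1, a transcript far more abundant in the reference pool, read -3.24 and -3.25 (0 h), -3.33 (3 h), -4.05 and -4.04 (6 h), -4.33 (12 h) and -4.44 and -4.54 (24 h). It read -4.04 (48 h), -3.20 and -3.31 (72 h) and -2.55 (96 h), the last above both 0 h arrays. Its rise after 48 h was 1.14 (SE 0.07, limma adjusted p = 0.00184). Both 6 h arrays were below the 3 h array by at least 0.7, with Cy3 at 1110 and 1250 units against 1660; the change from 3 to 6 h was -0.72 (SE 0.07) and was not called (limma adjusted p = 0.207).

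Z00022006-1 peaked late: it read 1.90 and 2.03 (0 h), 2.00 (3 h), 1.75 and 1.95 (6 h), 1.08 (12 h), 1.23 and 1.27 (24 h), 1.73 (48 h), 2.84 and 2.74 (72 h) and 2.16 (96 h). In all 6 members were higher late than at 3 and 6 h by the test, namely Z00007727-1 and Z00022006-1 with Z00057925-1, Z00038914-1, Z00048202-1 and Z00026214-1. Their late changes ran from 0.28 to 1.0. The last 3 of them were not well above background on at least 1 array. For Z00007727-1 and Z00022006-1 the call was lost in Cy3 alone, at 0.14 (adjusted p = 0.257) and 0.09 (adjusted p = 0.473), and for Z00007727-1 also without the 96 h array, at 0.04. Without the 3 h array 10 members were called higher.

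A dim minority of members is described apart. For 19 members Cy3 was not well above background on at least 1 array, with 13 such members on the second 6 h array, 11 on the 12 h array and 0 to 4 on each other array. Their Cy3 at 0 h was 103 to 305 units, against a median of 1530 over the 163 others. Their median difference from 0 h was already -0.30 by 3 h and -0.85 by 6 h, reached -0.99 on the 12 h array and ended as -0.73. From 3 and 6 h to 48 to 96 h their median change was close to 0, with 2 called lower and 3 higher. The 163 others had a median of -1.07 with 138 lower and 3 higher. Over all tested probes 16.8% were called lower and 20.7% higher. The 19 were picked by low Cy3, most often on the second 6 h array and the 12 h array. Low values at these times, and a late change measured from 6 h, are therefore partly set by that choice. The part of dimness in this contrast was not tested.

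**Figure D4:**
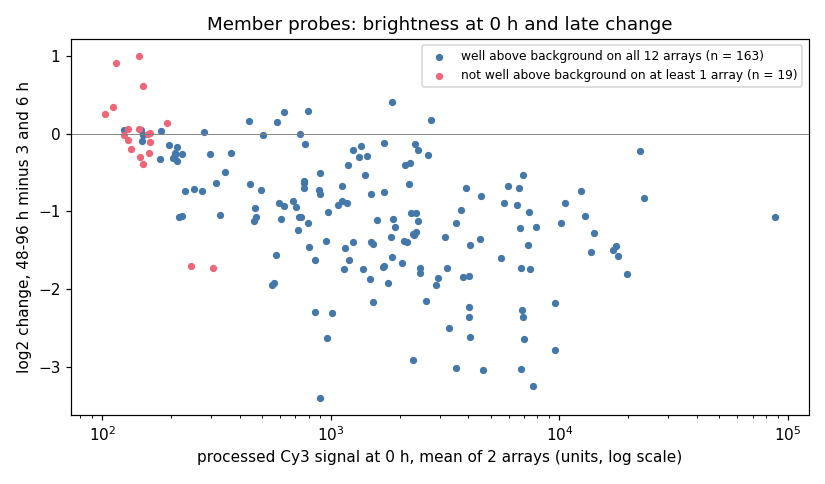
Log2 change from the mean of 3 and 6 h to the mean of 48, 72 and 96 h (vertical axis) against the processed Cy3 signal at 0 h, the mean of 2 arrays (horizontal axis, log scale), 1 point per member. Of the 19 members not well above background somewhere, 2 were called lower late; of the other 163, 138 were.

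At 12 h, 11 members were dim, and their difference from 0 h was recomputed with a replaced signal. This signal was the higher of their own and the lowest signal well above background on that array. Some brighter signals, up to 78.7 units, were still not well above background there. The folds are therefore rough values, not firm bounds, and where a member's own signal was the higher they are its measured difference. Z00037738-1, which had the lowest difference of all at 12 h (-1.92), was 3.75-fold lower in the ratio by that value. Its Cy3 signal was 158 and 166 units before Tc, against a lowest signal well above background of 63.1 at 12 h. Its Cy5 signal was 89.0 and 66.2 units before Tc and 112 at 12 h, and this higher Cy5 enters the fold. Its ratio was 0.83 and 1.33 (0 h), 0.58 (3 h), 0.07 and 0.06 (6 h), -0.84 (12 h), -0.25 and 0.07 (24 h) and 0.08 to 0.64 on the 4 late arrays. Its late change was 0.01 (SE 0.16, limma adjusted p = 0.974), and no difference of the late arrays from 3 and 6 h was detected. For the other 10 the rough value was 1.8-fold to 2.85-fold.

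In 11 members, picked out after the values were seen, the ratio was at least 0.5 lower at 3 h than at 0 h. Their median difference from 0 h was -0.76 by 3 h, -1.02 by 6 h, -0.93 by 12 h and -0.89 by 24 h, and ended as -0.93. Their 0 h arrays differed by a median of 0.50, against 0.09 in the other 171, and 3 differed by more than 0.7. Their median late change was 0.01, with 2 called lower and 1 higher, against 16.8% and 20.7% of tested probes. The 0 h arrays lay farthest apart, by 2.11, in Z00073272-1, which read -0.46 and 1.65 there and between -0.52 and -0.18 on the 10 arrays after. Next was Z00005645-1, with 2.12 and 0.25 at 0 h and between -0.40 and 0.09 on the 10 arrays after; its Cy3 signal was 897 and 272 units before Tc. Its difference at 6 h, -1.54, was the lowest of any member, and its first 0 h array stood apart from the other 11 arrays. Without the first 0 h array the rule finds 204 members, of which 158 are among the 182; without the second, 213 with 161 shared.

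Members just inside and outside the limit at 12 h had like values. Z00034467-1 (-0.7) and Z00005973-1 (-0.701) were inside, and Z00026662-1 and Z00022712-1 (both -0.699) outside, with the first pair at -1.31 and -1.12 and the second at -0.863 and -1.131 at 24 h. No gap in the values separates members from the rest at the limit.

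Some probes share sequence, so their values are not independent readings. The members Z00001969-1 and Z00060840-1 have 41 bases in common, in capitals here.
Z00001969-1: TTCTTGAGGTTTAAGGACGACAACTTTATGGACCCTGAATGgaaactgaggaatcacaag
Z00060840-1: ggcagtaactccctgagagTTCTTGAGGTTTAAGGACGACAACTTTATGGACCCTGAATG
Their differences from 0 h were -0.28 and -0.31 by 6 h, -0.79 and -0.80 by 12 h, -1.41 and -1.48 by 24 h, -1.81 and -1.83 by 48 h and -1.56 and -1.67 by the end. The pair ran close together throughout.

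The member Z00024977-1 shares 58 bases, in capitals, with Z00056893-1, which is no member.
Z00024977-1: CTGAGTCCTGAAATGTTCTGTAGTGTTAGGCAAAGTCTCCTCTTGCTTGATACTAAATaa
Z00056893-1: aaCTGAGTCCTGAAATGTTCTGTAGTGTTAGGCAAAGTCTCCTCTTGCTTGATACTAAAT
By 12 h the member stood at -0.78 and the other probe at -0.35, but by 24 h they stood at -1.10 and -1.19 and by 96 h at -1.71 and -1.80. The 2 probes differed most on the single 12 h array. The member Z00058720-1 shares 48 bases with Z00023306-1, also no member, which stood at -0.47 by 12 h where the member stood at -0.99. By 96 h both were above 0, the member at 1.14 and the other at 0.66. No other probe shared a run of 20 bases or more with a member on the deposited strand.

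The 2 dyes were also read apart. Centred on each array's median, Cy3 had a median change from 0 h over members of 0.10 (3 h), -0.15 (6 h), -0.92 (12 h) and -1.33 (24 h), with all 182 members below 0 at 12 h. Cy5 had medians of 0.16, 0.13, 0.05 and -0.09 at these times, where all tested probes had 0.10, 0.09, 0.05 and -0.02. Cy3 had fallen by at least 0.7 in 130 members at 12 h and in 165 at 24 h. No member's Cy5 had fallen as far at these times, but a lower Cy5 raises the ratio and so works against membership. Rises in Cy5, which lower the ratio, were not counted.

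**Figure D5:**
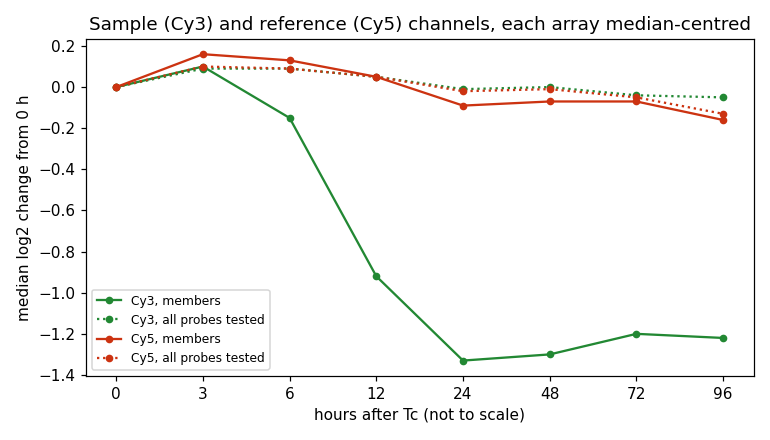
Median log2 change from 0 h (vertical axis) of the sample dye Cy3 and the reference dye Cy5, each array centred on its median, over members (solid) and all tested probes (dotted), against hours after Tc (horizontal axis, evenly spaced). Member Cy3 drops to -0.92 at 12 h and -1.33 at 24 h; the other 3 lines stay between -0.16 and 0.16.

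The probe sequences of members were somewhat richer in A and T than those of tested probes, with a median GC content of 40.0% against 43.3%. Over the 38670 probes past the rule's background conditions the median was 45.0%. ATTTA was found on the deposited strand in 18 members (9.89%), in 7.24% of tested probes and in 7.01% of those 38670. The shares were not adjusted for GC content. TGTANATA, the site of Pumilio proteins, which repress mRNAs, was in 3 members (1.65%) against 0.939%. AATAAA, the main poly(A) signal, was in 8 (4.4%) against 6.73%. CATTGTT, the core bound by Sox factors, was in 3 members on either strand (1.65%) against 1.17%. These are shares of short stretches of the transcripts, not of their regulatory DNA, and each member count is small.

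Below 20 bases, 1 pair of members shared a run of 15 bases or more, in capitals here. Of the 41754 probes that passed the filter, 2 hold this run on the deposited strand, both of them members, and the search was added after the sequences had been seen.
Z00026909-1: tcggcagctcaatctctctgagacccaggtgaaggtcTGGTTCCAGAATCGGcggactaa
Z00024942-1: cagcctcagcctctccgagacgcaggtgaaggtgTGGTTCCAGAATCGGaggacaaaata
Z00026909-1 read 1.05 and 0.61 (0 h), 1.37 (3 h), 0.72 and 0.65 (6 h), -0.01 (12 h), -0.05 and 0.17 (24 h), -0.07 (48 h), -0.29 and -0.11 (72 h) and 0.20 (96 h). It was highest at 3 h, and its late change was -1.05 (SE 0.13, limma adjusted p = 0.00108). Z00024942-1 read 0.12 and 0.01 (0 h), 0.15 (3 h), -0.26 and -0.25 (6 h) and -0.66 (12 h), and lay between -0.76 and -0.91 on the 6 arrays from 24 h on. Its late change was -0.78 (SE 0.05, limma adjusted p = 9.86e-05).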

How the data were processed

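RNA of 12 samples was measured on 2-colour Agilent arrays, sample in Cy3 and a reference pool in Cy5, with no dye swap. The deposited spot values are intensity values made with Feature Extraction 7.5.1, per the file headers; processed signals were background-subtracted and dye-normalized by that program. The deposited series table holds log10 values, with the centring unknown; its column medians were 2.98 after rounding, and its differences between arrays ran with sample over reference (r of 0.863 to 0.969 across spots). Members and lists were chosen with earlier results of these data known. The log2 ratio of processed signals, the scale that chose the members, was averaged over spots of a probe, without outlier-flagged spots in the tests (3 members had such a spot). Probes with Cy3 well above background on at least 2 arrays were kept. All 8 times entered 1 fit (lmFit and eBayes, limma 3.58.1, R 4.3.3; 4 residual degrees of freedom), with Benjamini-Hochberg adjustment over all probes tested. Times with 1 array were assumed to vary like the others. Same-numbered arrays had deviations that correlated by -0.014 to 0.168, so numbers were not taken to pair samples. Named members were, by rule, those lowest at 6 h, at 12 h and at 72 and 96 h, with the largest rise after 24 h, highest at 0 h, or nearest the limit; others are named where counts are small or sequences shared. The planned gene lists and cell type markers could not be read without gene names. On simulated data of 41246 probes, 200 of them changed by 1 log2 unit, 86.5% were recovered for 48 to 96 h against 3 and 6 h, 73.5% for 72 and 96 h against 48 h and 72.5% for 6 h against 3 h; at 0.5 log2 units, 53.0%, 24.0% and 14.0%. The simulated noise was normal and independent between probes. In the real late contrast 16.8% of tested probes were called lower and 20.7% higher, so recovery may differ there. Alternatives were normexp with loess (offsets of 50 and 0), median centring, Cy3 alone, the deposited table, other filters and thresholds, a replicate block, an intensity trend and each array left out. Figures were drawn with matplotlib 3.10.9.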

Additional observations from a re-analysis of the deposited data

How the results depend on the processing

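The count of members lower at 48 to 96 h than at 3 and 6 h (140) stayed within 1.5 times under every alternative run, at 128 to 144, and at 131 to 141 leaving out 1 array at a time. The 6 higher became 3 with Cy3 well above background on all arrays, 3 at an adjusted p under 0.01, and 5 to 10 leaving out 1 array. After 48 h, the 6 lower became 3 with Cy3 alone and 2 at an adjusted p under 0.01 (4 to 6 leaving out 1 array), and the 26 higher became 45 with normexp and an offset of 50, 8 with Cy3 alone and 15 at an adjusted p under 0.01 (18 to 26 leaving out 1 array). From 3 to 6 h, 19 were lower with the offset of 50 and 0 in the other settings, also leaving out 1 array. The rule found 93 members with the offset of 50, 64 at a limit of -1 and 413 at a limit of -0.5, and 180 to 213 leaving out 1 array. With Cy3 alone it found 227, of which only 130 are among the 182. With the replicate block, 140 members were lower and 6 higher late, 5 lower and 26 higher after 48 h, and 0 changed from 3 to 6 h. Among recalculated late changes of named members, 406 kept direction and side of the threshold and 3 lost the call. Z00005645-1 (0.15) gained it without the 3 h array, at 0.30, and was -0.04 with Cy3 alone. A further 2 uncalled members near 0 changed sign. Z00037738-1 (0.01) was between -0.01 and 0 under both normexp settings, -0.01 in the deposited table and -0.05 to 0.27 leaving out 1 array. Z00023333-1 (-0.01) was 0.28 with Cy3 alone and -0.08 to 0.44 leaving out 1 array, called without the 3 h array. Without the 12 h array the rule, and without the 3 h or 48 h array the contrasts that need them alone, could not be computed. The cause of these shifts was not tested, except that a stricter threshold or filter tests or calls fewer. Dim probes limit the folds: median Cy3 over background was 96.9 to 220 units.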
